A study of Mus musculus with 502 samples.

Results

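The complement component C1q is a secreted protein built from 3 kinds of chain, encoded by C1qa, C1qb and C1qc, and these genes were followed here cell by cell together with 7 other genes of resident kidney macrophages: Apoe, Mrc1, Stab1, Pf4, Cx3cr1, Dab2 and Hpgd. The 10 genes were chosen by name, with earlier results of these data known. All 10 were found among the 46603 gene rows of the count table. A cell was called C1q-positive when it had at least 1 read of each of the 3 chains, and among the 502 cells these were 51 from day 3, 20 from day 1, 18 from fresh kidneys, 16 from day 2, 13 from day 4 and 6 from 6 h. The cells were viable (propidium iodide negative) Cd45+ cells sorted from kidneys of wild type CD1 mice, an outbred stock, at an age of about 3 weeks. The kidneys were not perfused, so blood cells in the vessels were not washed out. They were dissociated fresh or kept whole in the transplant solution HTS-FRS at 4 °C for 6 h or for 1, 2, 3 or 4 days. Per the methods, both kidneys of a mouse were pooled for dissociation up to day 2, and a portion of the kidney tissue at days 3 and 4, and cells with little cDNA were not sequenced.

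C1q starts the classical pathway of complement. It binds antibody that sits on a surface, and it also binds dying cells, which macrophages then take up. Most plasma proteins come from the liver, but C1q is made mainly by macrophages and dendritic cells, and in the kidney the macrophages that live in the tissue are a known source. These macrophages lie between tubules and capillaries, carry the fractalkine receptor Cx3cr1 and take up particles and immune complexes.

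The 3 chain genes lie side by side on the minus strand of chromosome 4 in GRCm38, in the order C1qb, C1qc, C1qa. By the GENCODE M21 annotation, C1qb spans chr4:136880129-136886187, C1qc chr4:136889804-136893065 and C1qa chr4:136895917-136898803. The gaps between neighbours are 3616 bp and 2851 bp, and the cluster covers 18675 bp. The sequence before the transcription start is shown for the chains because the 3 genes were read together in the same cells. RefSeq promoter windows on GRCm38.p6 gave an entry for C1qb and for C1qc, and the printed part is what lies before both the RefSeq and the GENCODE start. It is chr4:136886201-136886450 for C1qb and chr4:136893066-136893164 for C1qc, both on the minus strand and written 5′ to 3′. Capitals mark the letters GAGGAA or their reverse complement TTCCTC, the core bound by PU.1, the factor that macrophage genes commonly share.
C1qb: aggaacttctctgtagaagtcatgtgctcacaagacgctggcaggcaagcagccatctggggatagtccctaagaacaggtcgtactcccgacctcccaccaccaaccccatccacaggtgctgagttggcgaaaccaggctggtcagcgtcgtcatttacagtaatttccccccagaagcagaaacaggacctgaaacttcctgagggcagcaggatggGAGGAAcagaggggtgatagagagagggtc
C1qc: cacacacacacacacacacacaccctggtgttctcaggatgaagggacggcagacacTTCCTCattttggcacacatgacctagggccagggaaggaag
Each of the 2 stretches holds the core once, on opposite strands. Of the 9 members with RefSeq windows of 300 bases, 8 hold the core on either strand in at least 1 window, and Cx3cr1 is the one that does not. The core is in 28.3% of all 32851 windows in that table, and Apoe and Dab2 have more than 1 window each. The letters TGCTGAC or GTCAGCA, which are part of the site of MAF factors, are in 4.67% of all windows and in the windows of 0 members. These are matches of letters in a window and are not binding sites that were measured.

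A cell had a median of 695188 counts on genes (range 1759 to 1895431). A number inside the label of a cell was read as the pool its library went into. Of the fresh cells, 75 were in pool A, with those of 6 h and day 2, and 81 in pool B, with those of days 1 and 3. The 35 cells of day 4 were split over pools A and B and a further pool, C. The labels do not name animals. A timepoint therefore counts as 1 sample, its cells are no replicates of one another, and nothing was tested. Shares carry exact Clopper-Pearson intervals at the 95% level. These cover counting error only, since without molecular identifiers several reads can come from 1 molecule. Levels are given in rpm, which scales the counts to the total on genes of the cell.

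The chains came as a set. Of the 502 cells, 335 had no read of any chain, 28 had reads of 1 and 15 of 2, and the rest had all 3. The C1q-positive cells were thus 24.7% of all cells (95% interval 20.99 to 28.7) and 74.3% of the cells with any chain read. The summed level of the chains split the cells into a high and a trace class with little between them. At least 1000 rpm was found in 26.1% of cells, 30 had a level above 0 and under 10 rpm, and 6 fell between 10 and 1000 rpm.

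**Figure D1:**
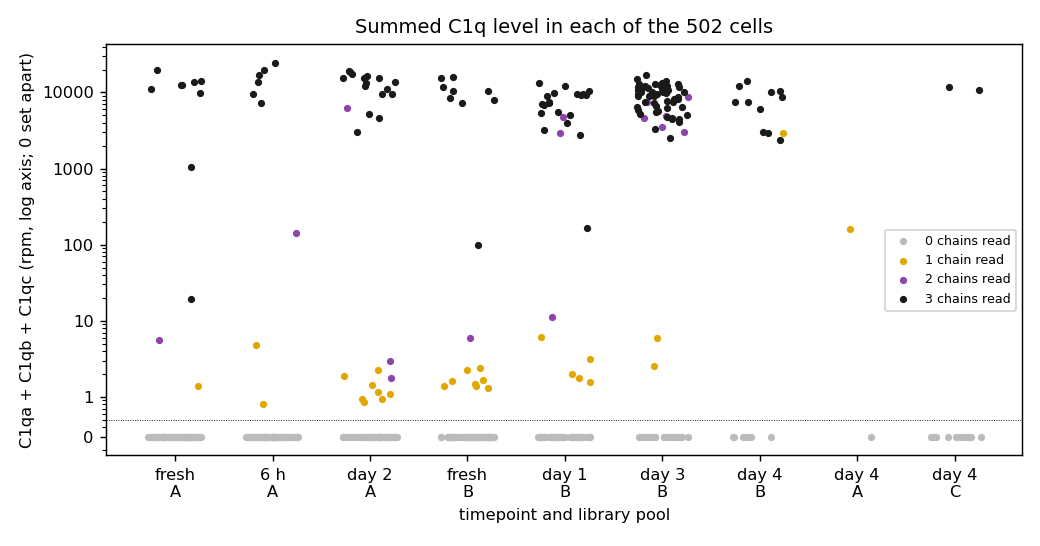
Summed level of C1qa, C1qb and C1qc in each of the 502 cells (rpm, log axis, with cells at 0 set apart under the dotted line) by timepoint and library pool, coloured by the number of chains read. The cells of at least 1000 rpm form a band in every group except day 4 of pool A, which has 2 cells, and 6 cells lie between 10 and 1000 rpm.

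Cells with 1 or 2 chains were of both classes. In 31 of the 43 the level was at most 11.2 rpm and rested on at most 4 reads, with a median of 1 read. The other 12 had 140 to 8690 rpm. The missing chain was C1qc in 7, C1qb in 5 and C1qa in 2 cells. In the cell at 140 rpm, from 6 h, the chains rested on 3 reads in all, and in each of the other 11 on more than 100 reads. These 12 cells had few genes, with a median of 720.5 per cell against 1956.5 in C1q-positive cells. Of the 12, 6 were from day 3, 2 each from days 1 and 4, 1 each from 6 h and day 2, and 0 from fresh kidneys. Whether the lower number of genes bears on the missing chain was not tested.

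The trace reads set the background. Among cells with a read of Cd3e and none of Cd79a, genes of the T and B cell receptor complexes, 93 had no chain read, 14 had 1 chain, 1 had 2 and 0 had all 3. Taking 3 cells as the limit that a count of 0 allows, this share could be up to 2.78%. The highest summed level in these Cd3e-marked cells was 5.91 rpm. Their median total was 706527 counts against 647116 in C1q-positive cells. Among 78 cells with reads of Cd79a and Cd79b and none of Cd3e, 67 had no chain, 4 had 1, 3 had 2 and 4 had all 3. The 4 B-marked cells with all chains were unlike each other. A 6 h cell had 16974 rpm of C1q and a day 4 cell 8738 rpm, each with under 20 rpm of Cd79a. A day 1 cell had 165.2 rpm of C1q, also with a Cd79a level at the trace scale (4.24 rpm). A fresh cell of pool B had 3877 rpm of Cd79a and 98.2 rpm of C1q, so its B cell genes were far above its C1q. Besides that cell, a fresh cell of pool A with 19.3 rpm was the other C1q-positive cell under 100 rpm. With the day 1 cell at 165.2 rpm, these make 3 trace cells under 1000 rpm. The chain correlations, the pairs of members and the comparisons that hold a trace cell are also given without them.

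The share of C1q-positive cells differed between timepoints. In pool A it was 12% of the 75 fresh cells (9 cells, 95% interval 5.64 to 21.6), 7.89% at 6 h (6 cells, 2.95 to 16.4) and 20.5% at day 2 (16 cells, 12.2 to 31.2). These 3 intervals overlap one another. In pool B it was 11.1% of the 81 fresh cells (9 cells, 5.21 to 20.05), 26.7% at day 1 (20 cells, 17.1 to 38.1) and 62.2% at day 3 (51 cells, 50.8 to 72.7). The day 3 interval lies above the intervals of the fresh cells and of day 1. Day 4 differed by pool, with 11 of 19 cells in pool B (57.9%, 33.5 to 79.7), 2 of 14 in pool C (14.3%, 1.78 to 42.8) and 0 of 2 in pool A. Since the labels do not name the mice behind a timepoint, the time in the solution and the mouse, dissociation and sort behind it cannot be told apart. Thinning the cells to 100000 counts left out 8 of them, and the day 3 share was then 61.7% and the share in fresh cells of pool B was 10%. With the class defined instead as at least 100 rpm of summed C1q, which adds the 12 cells above and leaves out the 2 C1q-positive cells under that level, the share was 69.5% at day 3 and 9.88% of fresh cells in pool B.

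**Figure D2:**
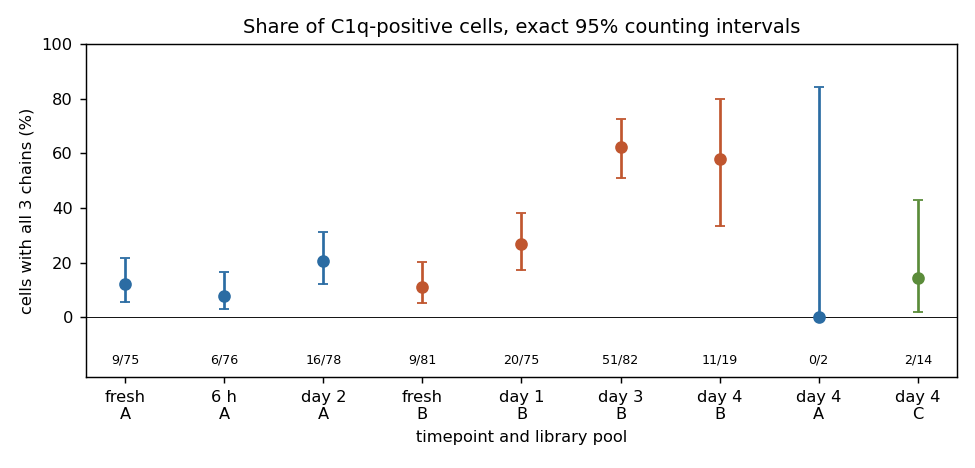
Percentage of cells with reads of all 3 C1q chains, by timepoint and library pool (colour), with exact 95% intervals for counting error and the number of cells under each point. Day 3 (51 of 82) and day 4 of pool B (11 of 19) are highest, and the fresh cells of both pools lie close to each other at 12% and 11.1%.

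Inside C1q-positive cells the summed C1q level of the timepoints had medians between 7391 and 15250 rpm. The summed level had a median of 9576 rpm over all of them. In pool A the 9 fresh cells ran from 19.3 to 19742 rpm (median 12413), the 6 cells of 6 h from 7338 to 24620 (median 15250) and the 16 cells of day 2 from 2997 to 19307 (median 13467). In pool B the 9 fresh cells ran from 98.2 to 16164 rpm (median 10338), the 20 cells of day 1 from 165.2 to 13270 (median 7391), the 51 of day 3 from 2500 to 16910 (median 8986) and the 11 of day 4 from 2350 to 14107 (median 7476). The 2 cells of pool C had 10805 and 11928 rpm. All these groups overlap. The number of genes read in the same cells moved more, from a median of 3453 in fresh cells of pool A and 2222 in fresh cells of pool B to 1711 at day 3 and 1237 at day 4 of pool B.

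The chains were not read at equal strength. Per kilobase of annotated exon, the median level was 3627 rpm for C1qb, 2456 for C1qa and 1495 for C1qc. C1qb was the highest of the 3 per kilobase in 91 C1q-positive cells, C1qa in 28 and C1qc in 5. Across these cells the log2 levels of the chains correlated with Pearson's r of 0.76 for C1qb and C1qc, 0.73 for C1qa and C1qc and 0.64 for C1qa and C1qb. Without the 3 trace cells these values were 0.50, 0.59 and 0.42. These are descriptions over cells that share libraries and depth. C1qa had the lowest single values, with 2.21 rpm in a day 4 cell and 4.83 in a fresh cell, where the other chains were higher.

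Each of the other 7 members was read mostly in C1q-positive cells. Apoe, the apolipoprotein that carries cholesterol out of cells, had 1 or more reads in 98.4% of them (all but 2) and in 21.2% of the 335 cells without a chain. It is also the member read most often in B-marked cells without a chain, in 13 of 67 (19.4%). The median in those 13 cells was 5.22 rpm and 5 of them had 100 rpm or more, against a median of 7591 rpm in C1q-positive cells. Per kilobase of exon its median was 3550 rpm, close to C1qb.

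The uptake receptors followed. Mrc1, the mannose receptor CD206, was read in 73.4% of C1q-positive cells and 1.19% of cells without a chain. Stab1, a scavenger receptor that also clears dying cells, was read in 70.2% and 0.896%. Dab2, an adaptor that links receptors to clathrin during endocytosis, was read in 87.9% and 3.58%. Their medians per kilobase in C1q-positive cells were 67.2 rpm for Mrc1, 64.4 for Dab2 and 23.6 for Stab1, far under the C1q chains. Exons of Stab1 overlap those of Nt5dc2, those of Dab2 overlap Gm18888 and those of Cx3cr1 overlap Gm33858, and the counting ignored strand, so these 3 values are uncertain to that extent.

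The signalling members were Cx3cr1, the receptor for fractalkine, Pf4, a chemokine best known from platelets, and Hpgd, the enzyme that inactivates prostaglandins. Cx3cr1 was read in 83.9% of C1q-positive cells and 12.2% of cells without a chain, Pf4 in 63.7% and 0.896%, and Hpgd in 63.7% and 2.39%. Their medians per kilobase in C1q-positive cells were 351 rpm for Cx3cr1, 250 for Pf4 and 110.7 for Hpgd. Among B-marked and Cd3e-marked cells without a chain, each of these 3 genes was read in at most 3.23% of cells. The platelet genes Itga2b and Gp9 were read in 0 C1q-positive cells and Ppbp in 4, while Pf4 was read in 79.

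**Figure D3:**
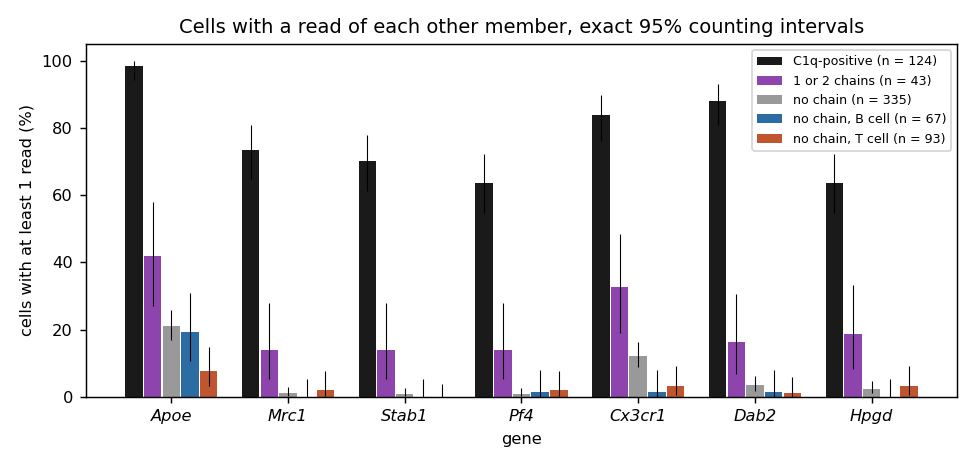
Percentage of cells with at least 1 read of each of the 7 other members, in C1q-positive cells, cells with 1 or 2 chains, cells without a chain, and the B-marked and Cd3e-marked cells among the last (bars, with exact 95% intervals for counting error). All 7 genes are read in 63.7% to 98.4% of C1q-positive cells, and Apoe (21.2%) and Cx3cr1 (12.2%) are the highest in cells without a chain.

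Counted in reads, the C1q-positive cells held 89.01% of all Apoe reads, 96.1% of Mrc1, 96.6% of Stab1, 94.9% of Pf4, 90.3% of Cx3cr1, 94.4% of Dab2 and 87.9% of Hpgd. No single cell held more than 7.73% of the reads of a member. Of the C1q-positive cells, 34 had reads of all 7 other members, 40 of 6, 19 of 5, 14 of 4, 11 of 3 and 6 of 2 or fewer. In the cells without a chain the picture was the reverse, with 70.4% of the 335 at 0 members, 67 cells at 1 and 24 at 2. Among the 43 cells with 1 or 2 chains, 28 had 0 or 1 member and 8 had 3 or more.

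Apoe and Cx3cr1 were also abundant in cells that had no C1q. At 100 rpm or more, Apoe was found in 36 of the 335 cells without a chain and Cx3cr1 in 29, with 15 cells having both. Reads of at least 2 monocyte genes of the list Ly6c2, Ccr2, Plac8 and Fn1 were present in 22 of the 36 and in 19 of the 29, and reads of at least 2 of 13 further macrophage genes in 30 and 28. For comparison, 22.7% of cells without a chain and without an Apoe read had 2 of them, and 22.8% of those without Cx3cr1, and for the macrophage genes these shares were 35.2% and 35.4%. The remaining members seldom reached that level without C1q: Dab2 in 6 cells, Hpgd in 4, Stab1 in 3, Mrc1 in 1 and Pf4 in 0. Of the 6 cells with Dab2, 4 had reads of 2 or more conventional dendritic cell genes (Flt3, Zbtb46, Xcr1, Batf3, Cd209a), against 4.33% of the cells without a chain and without Dab2, 4 had 2 or more monocyte genes and all 6 had 2 or more macrophage genes.

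The identity of the C1q-positive cells was described by 13 further macrophage genes, a list also chosen with earlier results of these data known. All 13 were read in a larger share of C1q-positive cells than of cells without a chain, and 10 were read in at least 50% of them. Csf1r, the receptor for the macrophage growth factor, was read in 95.97%, Cd81 in 90.3%, Cd68 in 89.5% and Adgre1, which encodes F4/80, in 72.6%. Mertk (15.3%) and Trem2 (5.65%), both receptors for dying cells or lipids, were seldom read. Over all 9543 genes read in at least 25 cells, 4239 had the larger share in C1q-positive cells and 709 were read in at least 50% of them.

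Of 12 genes that mark subsets of resident macrophages in other organs, several were near 0. Lyve1, Folr2 and Fcna were each read in 3 C1q-positive cells, Timd4 in 4, and Vsig4 and Cd209f in 1 each. Cd163 and Cbr2 were read in 10.5% and Siglec1 in 8.06%. Axl, a receptor for dying cells, was the one gene of the 12 in that list read in at least 50% (67.7%). Its ligand Gas6 was read in 30.6% and the iron exporter Slc40a1 in 32.3%. All 12 had a larger share in C1q-positive cells than in cells without a chain.

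The rest of the complement system was not read as a block with C1q. The proteases that complete the C1 complex were nearly absent, with C1ra read in 4 C1q-positive cells and C1s1 in 0, and the next components C2 and C4b were read in 7 cells each and C3 in 5. The receptors for C3a and C5a were read more often. C3ar1, the first, was read in 66.9%, against 0.597% of cells without a chain, and C5ar1 in 60.5% against 23.6%. Cd93 was read in 16.1% against 4.78%. Itgam (10.5% against 26.9%) and Itgb2 (46.8% against 66.3%), of the same list, went the other way. Calr, a chaperone that can bind C1q on cell surfaces, was read in 76.6%, but it was also read in 56.1% of cells without a chain. Of the 19 complement genes listed, 12 had a larger share in C1q-positive cells and 4 were read in at least 50% of them.

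Reads of 2 or more markers of another cell type were seldom found in the C1q-positive cells. They were found in 5 cells for B cells, 5 for neutrophils, 4 for monocytes and 2 for conventional dendritic cells. For T cells and for group 2 innate lymphoid cells it was 1 cell each, and for natural killer cells, epithelium, endothelium and platelets 0. The neutrophil genes were not spread evenly, as 4 of those 5 cells were among the 9 fresh cells of pool A, with 0 at 6 h and 1 at day 2. Of the 4 cells with monocyte genes, 2 were also fresh cells of pool A, where the summed level reached 13958 rpm, and 1 was from day 2. Single markers were read in more cells, such as Cd79b in 20.2%, against 23.3% of cells without a chain. In the dendritic cell and group 2 innate lymphoid lists 1 gene each had the larger share in C1q-positive cells. These were Batf3 (18.5% against 8.96%) and Il1rl1 (11.3% against 6.57%). In the B cell, T cell, neutrophil and monocyte lists 0 genes did. Ptprc, which encodes the sorted antigen Cd45, was read in 86.3% of C1q-positive cells and 93.4% of cells without a chain. By group it was read in 9 of 9 fresh cells of each pool, 5 of 6 at 6 h, 20 of 20 at day 1 and 16 of 16 at day 2. At day 3 it was read in 41 of 51, and at day 4 in 5 of 11 of pool B and 2 of 2 of pool C. The part of cells without Ptprc in the shares and comparisons was not tested.

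The genes whose detection was most like that of C1q were taken by the phi coefficient between a read of the gene and C1q positivity over the 502 cells. The chains themselves define the class and stand first. Dab2 had the highest phi of all other genes (0.82), followed by Mgl2 (0.78), a lectin of macrophages that binds galactose sugars. Mrc1 (0.76), C3ar1 (0.74), Stab1 (0.74), Slamf9 (0.74) and Mmp13 (0.71), a collagenase, came next. Pf4 (0.70), Hpgd (0.65), Apoe (0.65) and Cx3cr1 (0.64) stood among Lilra5, Tmem176b, Cxcl16, Rab3il1, Axl and Cd63, which had phi between 0.69 and 0.65. Mgl2 was read in 83.9% of C1q-positive cells and 4.18% of cells without a chain. All 7 other members were thus within the first 20 ranks of 9543 genes, and they differ by how far they extend beyond C1q cells. The members were chosen with earlier results of these data known, so their ranks are a description and no independent support.

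Among themselves, the 7 members did not split the C1q-positive cells into clean subsets. Over all reads, the 21 pairs had a positive phi inside the C1q-positive cells. The highest was between Mrc1 and Dab2 (0.45), with both read in 88 cells, Mrc1 alone in 3, Dab2 alone in 21 and neither in 12. It was followed by Mrc1 and Hpgd (0.34), Cx3cr1 and Dab2 (0.31), Mrc1 and Pf4 (0.30) and Mrc1 and Stab1 (0.29). Pf4 was close to unrelated to Cx3cr1 (0.03) and to Dab2 (0.03). At an equal depth of 100000 counts per cell, which leaves out 2 of these cells, Mrc1 and Dab2 had 0.29, and the highest were Cx3cr1 and Dab2 (0.36), Stab1 and Dab2 (0.32) and Mrc1 and Pf4 (0.32). In cells of at least 1000 genes Mrc1 and Dab2 stayed at 0.45, while Cx3cr1 and Dab2 had 0.19 and Stab1 and Dab2 0.20. Without the 3 trace cells Mrc1 and Dab2 had 0.43, still the highest, and Pf4 and Dab2 had -0.0049, the one pair below 0.

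**Figure D4:**
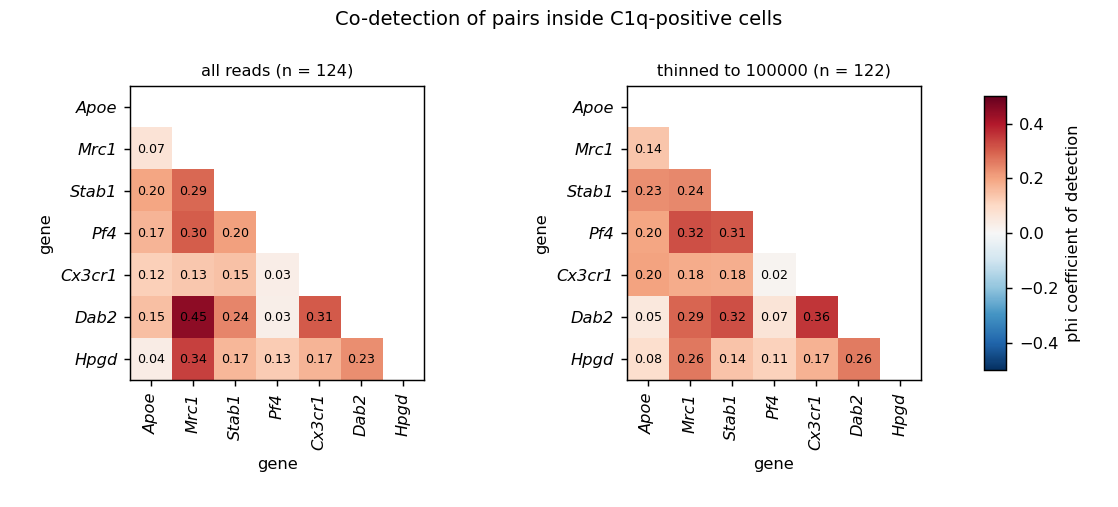
Phi coefficient between the detection of each pair of the 7 other members inside C1q-positive cells, on all reads and after thinning to 100000 counts, with red for positive values. All 21 pairs are positive on both sides, with Mrc1 and Dab2 highest on all reads (0.45) and Cx3cr1 and Dab2 highest after thinning (0.36).

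Cells with Mrc1 were compared with cells without it, among C1q-positive cells with at least 1000 genes. Dab2 was read in 98.8% of the 84 cells with Mrc1 and 70.4% of the 27 without, Hpgd in 76.2% and 40.7%, Pf4 in 73.8% and 37.04%, and Stab1 in 79.8% and 55.6%. Outside the members, Gas6 was read in 40.5% and 7.41% and Slc40a1 in 36.9% and 11.1%. Ccr2, the chemokine receptor of monocytes, went the other way, with 10.7% and 25.9%. The cells with Mrc1 also had more genes (median 2113.5 against 1736) and more counts (733016 against 570332), and the part of this depth in the differences was not tested.

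Most genes are read less often in cells chosen for few genes, so the shares below say nothing particular to the members. No share over all genes was set beside them. The 13 C1q-positive cells under 1000 genes (7 of day 3, 4 of day 4 and 2 of day 1) had a median Apoe level of 10585 rpm against 7385 in the others. The median of Pf4 was also higher (366 against 180 rpm), and those of Mrc1, Stab1, Cx3cr1, Dab2 and Hpgd were lower. Mrc1, Pf4, Cx3cr1 and Dab2 were each read in 7 of the 13, Stab1 in 5 and Hpgd in 4. In the other C1q-positive cells these 6 genes were read in 64.9% to 91.9%. Cells with few genes that lacked a chain read are not among the 13, so the chains cannot be compared in this way.

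The fresh C1q-positive cells of the 2 pools were not alike, although their share of cells and their C1q level were close. Mrc1 was read in 8 of 9 cells of pool A and 9 of 9 of pool B, and Stab1 in 7 of 9 in both. Cx3cr1 was read in 5 of 9 cells of pool A and 9 of 9 of pool B, Pf4 in 3 and 8, and Hpgd in 3 and 7. All 7 other members were read in 0 cells of pool A and 5 of pool B. The cells of pool A had reads of Gbp2b, a gene induced by interferon, in 9 of 9 cells, against 0 of 9 in pool B. Their median number of genes was 3453 against 2222. Preserved cells are therefore compared below within a pool.

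The noncoding RNA Xist, which silences an X chromosome in female cells, also differed between groups of C1q-positive cells. In pool A it was read in 9 of 9 fresh cells, in 5 of the 6 cells of 6 h and in 12 of the 16 of day 2. In pool B it was read in 16 of the 20 cells of day 1, and both C1q-positive cells of pool C had it. It was nearly absent elsewhere in pool B, with 1 of 9 fresh cells, 0 of 51 at day 3 (up to 5.88% by the same limit of 3 cells) and 1 of 11 at day 4. Fresh against day 1 and day 1 against day 3 in pool B therefore also compare cells with and without Xist.

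A total of 7 pairs of timepoints share a pool, and for each the mean log2(rpm + 1) of C1q-positive cells was compared gene by gene. A gene was counted when the means differed by at least 1, which is 2-fold on that scale, and this is a rule of size and not a test. Because many genes are read in part of the cells, such a difference mixes level with the share of cells with a read. The members are set beside all genes that entered, of which a large part passed the same rule.

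In pool A, 7 members were at least 2-fold higher at 6 h than in fresh cells and 1 was lower, where 61.6% of the 5722 genes compared passed in either direction. The median difference was 1.58 over the members and -0.45 over all genes. Cx3cr1 differed most, with a mean of 9.49 at 6 h and 5.38 in fresh cells. Pf4 was higher by 3.07, Hpgd by 2.80, C1qa by 2.18, C1qb by 1.63, Apoe by 1.53 and C1qc by 1.35, and Stab1 differed by -1.26. Much of this came from the fresh trace cell at 19.3 rpm. Without it, 4 members were at least 2-fold higher (Cx3cr1 3.44, Pf4 2.73, Hpgd 2.54, C1qa 1.27), Stab1 was lower (-1.71), and the median over members was 0.66. The C1qa value still holds a fresh cell with 5.04 rpm of C1qa, whose summed C1q of 1033 rpm is just above the cut. The median C1qa level of the fresh cells of pool A was 3678 rpm. Against the fresh cells of both pools together, 5 members were higher and 2 lower: Hpgd (0.12) was within 2-fold, Pf4 was higher by 1.05 and Dab2 was past 2-fold lower (-1.07). For summed CPM, counts and totals were each summed over the cells of a group before scaling, so deeper cells weigh more. In summed CPM, Hpgd (2.77) and Cx3cr1 (1.15) were the members past 2-fold, and C1qa differed by 0.44. The neutrophil and monocyte genes read in some fresh cells of pool A stand beside these values and those of day 2, and their part was not tested. The gene with the largest rise among all genes was Parvg, a protein of cell adhesion, and the one with the largest fall was Gbp2b.

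At day 2 of pool A, 8 members were at least 2-fold higher than in fresh cells and 0 were lower, where 58% of 5360 genes passed. The median over members was 1.79 and over all genes -0.95. Hpgd differed most (4.96), being read in 13 of 16 cells at day 2 and 3 of 9 fresh cells, followed by Cx3cr1 (3.51), Pf4 (2.82) and Dab2 (2.37). Mrc1 did not follow, with a difference of -0.12. Without the fresh trace cell, Hpgd (4.70), Cx3cr1 (2.84), Pf4 (2.48) and Dab2 (1.51) were past 2-fold, Mrc1 was lower (-1.08), and the median over members was 0.90. The same 4 genes passed in summed CPM, where Mrc1 differed by 0.59. Against the fresh cells of both pools together, 6 members were higher, Hpgd by 2.28, and Pf4 came within 2-fold (0.79). Among all genes, Slamf9 had the largest rise.

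Between 6 h and day 2 of pool A, 3 members were at least 2-fold higher at day 2 and 0 were lower, where 54% of 4809 genes passed. These were Stab1 (2.50), Dab2 (2.34) and Hpgd (2.16), while the 3 chains differed by -0.29 to -0.47. With 6 cells at 6 h, Hpgd rested on 3 cells with a read. The summed CPM of Hpgd differed by 0.04 on the log2 scale, and those of Stab1 and Dab2 by 1.16 and 1.04. The largest rise among all genes was in Ccl3, a chemokine, and the largest fall in Pycard, an adaptor of the inflammasome.

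In pool B, 5 members passed 2-fold downward. At day 1, 0 members were at least 2-fold higher than in fresh cells and 5 were lower, where 50.5% of 4124 genes passed. The median over members was -1.04 and over all genes 0.02. The differences were -2.17 for Mrc1, -2.07 for Dab2, -1.72 for Stab1, -1.66 for Hpgd and -1.28 for Pf4. The chains and Cx3cr1 differed by -0.34 to 0.40. In summed CPM Hpgd was past 2-fold lower (-1.13) and Cx3cr1 was past 2-fold higher (1.31), while Mrc1 (-0.21), Pf4 (-0.26), Stab1 (-0.52) and Dab2 (-0.58) came within 2-fold. Against the fresh cells of both pools together, Hpgd and Pf4 turned to higher at day 1 (1.02 and 0.75). Without the cells under 1000 rpm, 1 in each group, the median over members was -1.60 and over all genes -0.28, Apoe was also past 2-fold lower (-1.37) and Cx3cr1 differed by -0.28. In cells of at least 1000 genes Apoe was also past 2-fold lower (-1.10) and Cx3cr1 past 2-fold higher (1.46). Xist had the largest rise among all genes, and Tm9sf3 the largest fall.

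At day 3, the same 5 members were at least 2-fold lower than in fresh cells of pool B and 0 were higher, where 52.3% of 3114 genes passed. The median over members was -0.60 and over all genes -0.82. Without the fresh cell under 1000 rpm these medians were -1.48 and -0.81, so where the members lie against all genes rests on that cell. Mrc1 differed most, read in 9 of 9 fresh cells and 35 of 51 at day 3, with medians of 735 and 322 rpm. Its mean log2 level differed by -3.04. In summed CPM 0 members were past 2-fold lower, with Mrc1 at -0.67, and Cx3cr1 (1.21) was the one member past 2-fold. In cells of at least 1000 genes Stab1 came within 2-fold (-0.46), and with a pseudocount of 10 Mrc1 (-1.97) and Dab2 (-1.23) were the 2 members lower. Against the fresh cells of both pools together, Mrc1 stayed lower (-2.18), while Hpgd (1.11) and Pf4 (0.56) turned to higher. Stab1 (-0.38) and Dab2 (-0.49) then came within 2-fold, and Cx3cr1 was past 2-fold higher (2.34). Without the fresh cell under 1000 rpm, the same 5 members were lower, by -1.98 (Stab1) to -3.60 (Mrc1), and C1qa (-0.98), Apoe (-0.85) and Cx3cr1 (-0.32) stayed within 2-fold. Hmgb2, a chromatin protein, had the largest rise among all genes and Stk17b, a kinase, the largest fall.

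Between days 1 and 3 of pool B, 0 of the 10 members differed by 2-fold in either direction, where 38.8% of 3617 genes passed. The members ran from -0.86 (Mrc1) to 0.87 (C1qc), with a median of 0.32 over members and -0.65 over all genes. These are the largest groups, with 20 and 51 cells. In summed CPM Hpgd was past 2-fold (1.04), and in cells with at least 1000 genes Stab1 was (1.33). Without the day 1 cell under 1000 rpm, 0 members passed, with Mrc1 at -0.98. Xist had the largest fall and the pseudogene row Rps2.ps13 the largest rise.

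At day 4, 5 members were at least 2-fold lower than at day 3 of pool B and 0 were higher, where 51.3% of 2302 genes passed. The differences were -2.69 for Mrc1, -2.35 for Stab1, -1.90 for Dab2, -1.80 for Hpgd and -1.36 for Cx3cr1, with a median of -1.17 over members and -0.67 over all genes. The other 5 members were within 2-fold, with C1qa at -0.98, C1qc at -0.74, C1qb at -0.60, Apoe at -0.15 and Pf4 at 0.59. Of the 11 cells, 4 had fewer than 1000 genes. In cells above that number Mrc1 (-2.47), Stab1 (-2.06) and Hpgd (-1.45) stayed lower, Dab2 came within 2-fold (-0.38) and Cx3cr1 turned to higher (1.22). In summed CPM 0 members were past 2-fold lower: Mrc1 differed by -0.46, Stab1 by -0.45, Dab2 by -0.13 and Hpgd by -0.06, Cx3cr1 turned to 0.86, and Pf4 was past 2-fold higher (1.35). Cx3cr1 was read in 7 of the 11 cells but had the highest median of all groups (4149 rpm). Mmp13 had the largest fall among all genes and Pld3, a lysosomal enzyme, the largest rise.

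**Figure D5:**
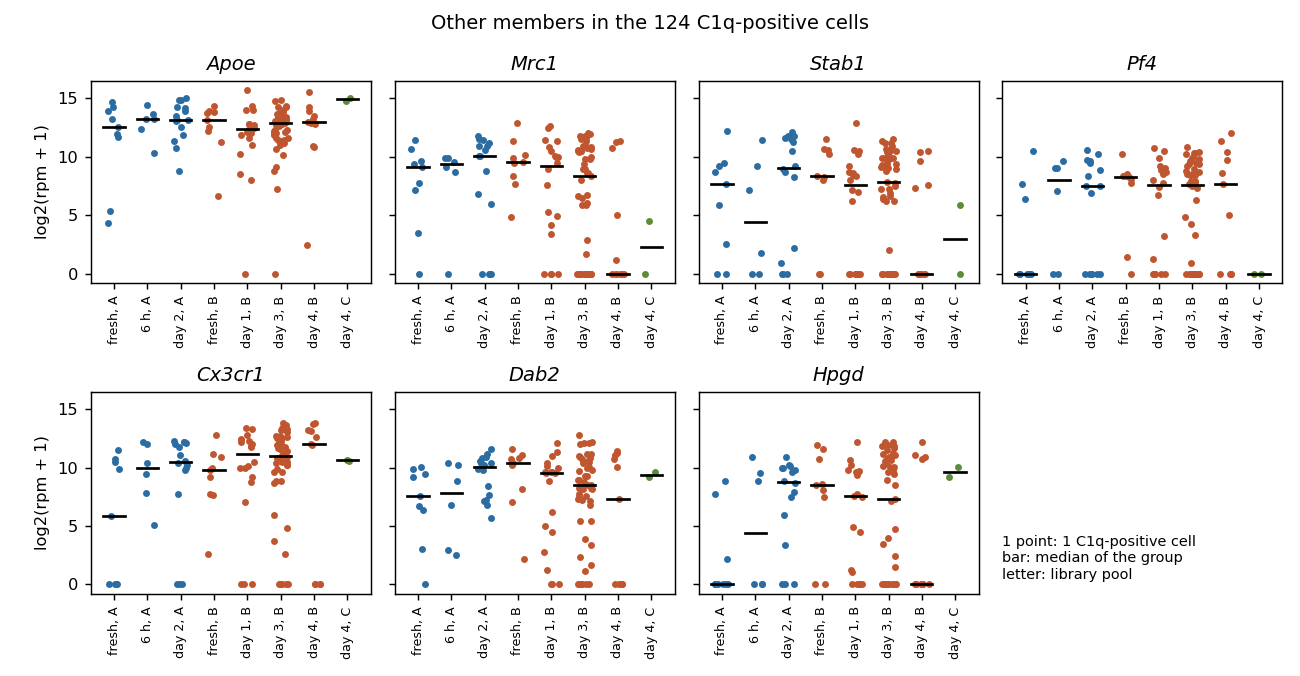
Level of the 7 other members, as log2(rpm + 1), in each C1q-positive cell by timepoint and library pool (colour); the bar is the median. Apoe is high in nearly all cells of every group, while Mrc1, Stab1, Pf4 and Hpgd split into cells at 0 and cells at a high level, with medians at 0 for Mrc1, Stab1 and Hpgd at day 4 of pool B, for Pf4 and Hpgd in fresh cells of pool A and for Pf4 in the 2 cells of pool C.

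Across the 7 comparisons, Cx3cr1, Pf4, Dab2, Hpgd and Stab1 each passed 2-fold upward in at least 1 and downward in at least 1. The one downward pass of Cx3cr1, at day 4 against day 3, turned upward in cells of at least 1000 genes (1.22) and in summed CPM (0.86). Mrc1 was past 2-fold lower at days 1 and 3 against fresh cells and at day 4 against day 3 in pool B, but in summed CPM these differences were -0.21, -0.67 and -0.46. The median number of genes in C1q-positive cells of pool B was 2222 in fresh cells, 2152 at day 1, 1711 at day 3 and 1237 at day 4, and its part in these values was not tested. Mrc1 was within 2-fold of fresh cells at 6 h (0.24) and day 2 (-0.12) in pool A. Without the fresh trace cell of pool A these last values were -0.71 and -1.08, while at day 2 its summed CPM differed by 0.59 and its median was 1049 rpm against 558 in fresh cells, so it had no settled direction there. Its share of C1q-positive cells with a read was 9 of 9, 16 of 20, 35 of 51 and 5 of 11 in pool B from fresh to day 4, and 8 of 9, 5 of 6 and 12 of 16 in pool A. The 95% intervals of neighbouring timepoints overlap. The medians of the cells with a read did not show the same order, at 735, 1027, 987 and 1735 rpm in pool B. The C1q chains differed by less than 1 in all 4 comparisons of pool B, with C1qa at day 4 against day 3 the closest to that line (-0.98).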

How the data were processed

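The Cd45+ cells were made into full-length cDNA libraries by a protocol adapted from SmartSeq2. The authors removed duplicate reads, mapped the rest with STAR on GRCm38, assigned them to genes by HTSeq without regard to strand, and deposited raw counts, 1 column per cell. Versions of both were not given in the sources used here. Rows for spike-ins, 96 in number (0.000185% of counts), and 1 vector row (0.139%) are not genes and stayed out of totals.

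To give rpm, counts were scaled to the total over gene rows of each cell. Intervals are exact (SciPy 1.17.1; Python 3.11.15, NumPy 2.4.6, pandas 2.3.3, Matplotlib 3.10.9). The comparisons used genes read in at least 25% of the C1q-positive cells of either timepoint, at least 5 cells a side and a pseudocount of 1, and were tried on simulated counts. Named beside the members are the genes of the marker, complement and subset lists, the 10 non-member genes with the highest phi, and the gene with the largest rise and fall of each comparison, of which some are not reported here; Gbp2b in the fresh pools and Xist in all groups were followed after their values were seen. The members and lists were chosen with earlier results of these data known. Doublets were not called. Alternatives were thinning to 100000 counts, a minimum of 5 reads or 100 rpm, cells of at least 1000 genes, a total without Rn18s.rs5 and mitochondrial genes, a pseudocount of 10, genes read in at least 1 cell, summed counts, and all fresh cells. Using cells of at least 1000 rpm, and the same total in the comparisons, were chosen after seeing the data.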

Additional observations from a re-analysis of the deposited data

How the results depend on the processing

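Counting a cell with a read of at least 1 chain raised the C1q share to 33.3% of all cells, 18.6% of fresh cells and 34.6% at day 2, and the other timepoints stayed within their intervals. Of the cells with a chain, 88.8% had all 3 with a minimum of 5 reads and 85% after thinning, against 74.3%. With a pseudocount of 10, the genes past 2-fold numbered 2231 (6 h against fresh), 1759 (day 2 against fresh), 1627 (day 2 against 6 h), 1040 (day 1 against fresh), 847 (day 3 against fresh), 445 (day 3 against day 1) and 669 (day 4 against day 3), and among genes read in at least 1 cell 2517 of 12669 (19.9%, day 3 against fresh) and 2031 of 12373 (16.4%, day 4 against day 3). Against all fresh cells, Pf4 (0.75 at day 1, 0.56 at day 3) and Hpgd (1.02 at day 1, 1.11 at day 3) turned from lower to higher. Cx3cr1 at day 4 against day 3 turned to 0.86 in summed counts and 1.22 in cells of at least 1000 genes. The cause of these turns was not tested. Of 460 differences of a member under an alternative, 396 kept their side of the 2-fold rule, 47 fell under it, 11 came past it and 6 past it turned. The sign also changed in 32 that were under 2-fold as reported. No paired analysis was possible because the replicate numbers only name cells and no test was run. Fresh and 6 h groups hold 6 to 9 C1q-positive cells, which limits what these comparisons can show.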
